A study of Mus musculus with 6 samples.

Results

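The genes described here are the peroxiredoxins and the thioredoxin system, as measured in mouse lung tumors: Fam213a, Prdx1 to Prdx6, Txn1, Txnrd1 and Srxn1. All 10 were found by gene name among the 36870 gene names of the array and all 10 were bright enough to be tested, among 20474 tested genes in all. The group was chosen by measured values, because Fam213a was evenly higher with tamoxifen in every couple of samples, so the values of Fam213a are given as a description with no test. The other members were taken for their family or role.

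The samples were lung tumors of C57BL/6J mice that all carried a floxed Ror1 gene (Ror1f/f), CreER under the ubiquitously active CAG promoter and a mutant human EGFR under the surfactant protein C promoter (SPC-hEGFRdel746-750), which drives it in alveolar type 2 cells. The mice received tamoxifen, which activates CreER, or corn oil for 4 weeks, between 16 and 20 weeks of age, and the tumor was taken at 20 weeks. The data are 6 arrays read in 2 colours. Samples tamoxifen 1 and oil 1 form couple 1 and shared 2 arrays with the dyes exchanged, and likewise for couples 2 and 3. The labels do not say that the numbered samples came from separate animals, so an SD or p-value here measures the spread between these samples, which may be technical. Groups are called by their labels throughout.

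Peroxiredoxins are thiol enzymes that reduce hydrogen peroxide and organic peroxides through a reactive cysteine. Thioredoxin reduces most of these enzymes again once they are oxidised. Thioredoxin reductase passes electrons from NADPH to thioredoxin, and sulfiredoxin rescues some peroxiredoxins whose cysteine has been oxidised further. The family is spread over the cytosol, mitochondria, peroxisomes and endoplasmic reticulum, and several of its genes are known targets of NRF2, the transcription factor that responds to oxidants.

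Probe sequences of Fam213a, Prdx4 and Prdx6, the members with the largest ratios of one sign, are shown first, since each ratio rests on what its probe binds. Positions are on mouse build mm9. The Fam213a probe covers chr14:41807029-41807088 on the minus strand, and its bases 31 to 60 are shown, with the letters AATAAA of a polyadenylation signal in capitals. The Prdx4 probe covers chrX:151764882-151764941 on the minus strand. For Prdx6, the probe at chr1:163173715-163173774 on the minus strand is shown because its accessions also include one that RefSeq gives to the related gene Prdx6b, so its signal may hold both. The Prdx6 ratio used below rests on another, brighter probe, at chr1:163171138-163171197, which was linked to no other gene and whose sequence is not shown.
Fam213a: aaactgtcacctctAATAAAaatattcacc
Prdx4: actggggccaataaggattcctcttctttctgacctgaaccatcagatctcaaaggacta
Prdx6: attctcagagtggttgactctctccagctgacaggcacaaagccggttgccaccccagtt

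Fam213a and Prdx4 stood highest among the members: tumors with tamoxifen had 1.82-fold more Fam213a signal and 1.52-fold more Prdx4 signal than tumors with oil. Prdx2 was nearly level, Prdx6 was 1.27-fold lower, and the remaining 6 changed sign from couple to couple. Of the 10 members, 3 were higher in all 3 couples, against 13.8% of all tested genes, and 1 was lower in all 3, against 16.4%. These counts include Fam213a, on which the choice rests, and nothing is read from them. None of the other 9 passed an adjusted p of 0.05 in limma with Benjamini-Hochberg adjustment, and 0 of the 20474 tested genes did (0% called). The lowest adjusted p of any gene was 0.41, while 1436 genes were under an unadjusted p of 0.05. With the 6 arrays fitted separately and the couple as a replicate block, 56 genes passed, 0 of them among the other 9 members.

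**Figure D1:**
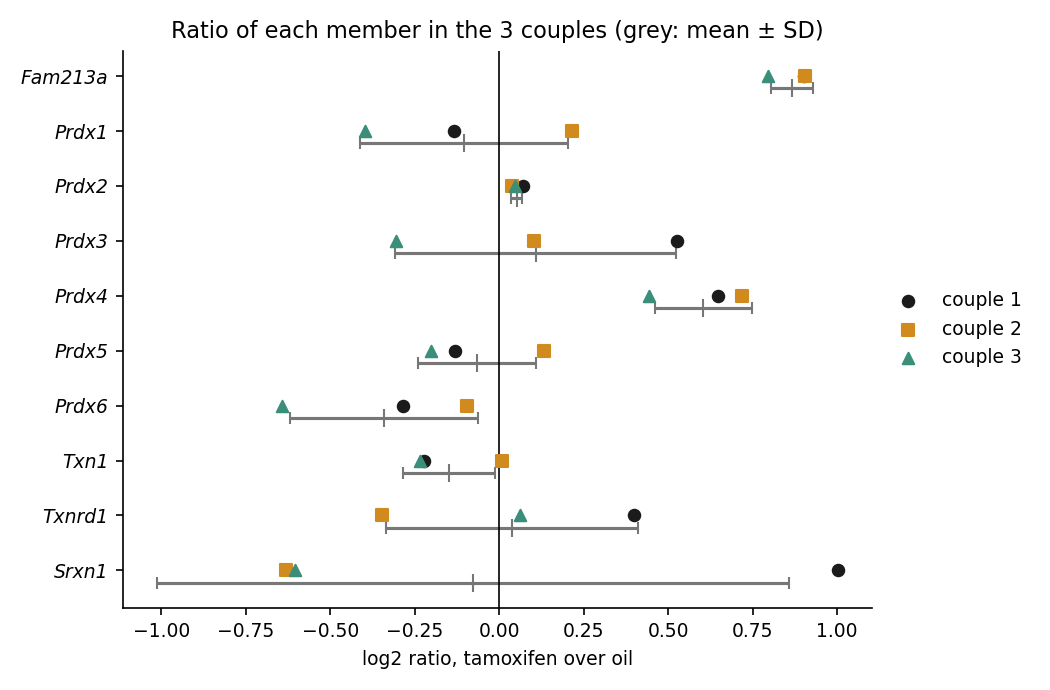
The log2 ratio of tamoxifen over oil (horizontal axis) is plotted for each member in couple 1 (circle), couple 2 (square) and couple 3 (triangle), with the mean ± SD over the 3 couples in grey. Fam213a lies between 0.79 and 0.91 and Prdx4 between 0.44 and 0.72, whereas Srxn1 lies between -0.63 and 1.004.

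Fam213a encodes a peroxiredoxin-like protein with a thioredoxin-like fold, named Prxl2a in RefSeq (GRCm38.p6) and known as an antioxidant regulator in bone-resorbing cells and macrophages. Its normalized log2 signal was 12.93, 12.34 and 12.26 in tamoxifen samples 1, 2 and 3, against 12.03, 11.44 and 11.47 in oil samples 1, 2 and 3. All tamoxifen samples lay above all oil samples, as for 5.2% of tested genes. It was the 1 member of which this held, and 0 members had all tamoxifen samples below all oil samples, against 7.14% of tested genes. Sample 1 was the brightest of both groups, so that the couples differed in level more than in ratio. The log2 ratios were 0.90, 0.91 and 0.79 in couples 1, 2 and 3 (mean 0.87 ± 0.06 SD over n = 3 couples). The spread of 0.06 was smaller than that of most genes, at percentile 12.4 of the tested genes.

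Both dye orientations gave a higher Fam213a signal with tamoxifen in every couple. With tamoxifen in Cy5 the log2 ratios of couples 1, 2 and 3 were 0.79, 0.80 and 0.64, and with tamoxifen in Cy3 they were 1.01, 1.02 and 0.95. The gap between orientations was thus -0.22, -0.22 and -0.31, smaller than the ratio itself and of one sign, and it cancels in the mean of a couple. Over all tested genes, 40 had a mean ratio at least as high as that of Fam213a, itself included. Of all tested genes, 4 had a lowest couple ratio at or above its 0.79, itself included. Fam213a was chosen for evenly higher ratios, so these ranks and its spread percentile follow from the choice and nothing is read from them. None of its 6 readings per group was near background by the scanner's flag.

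**Figure D2:**
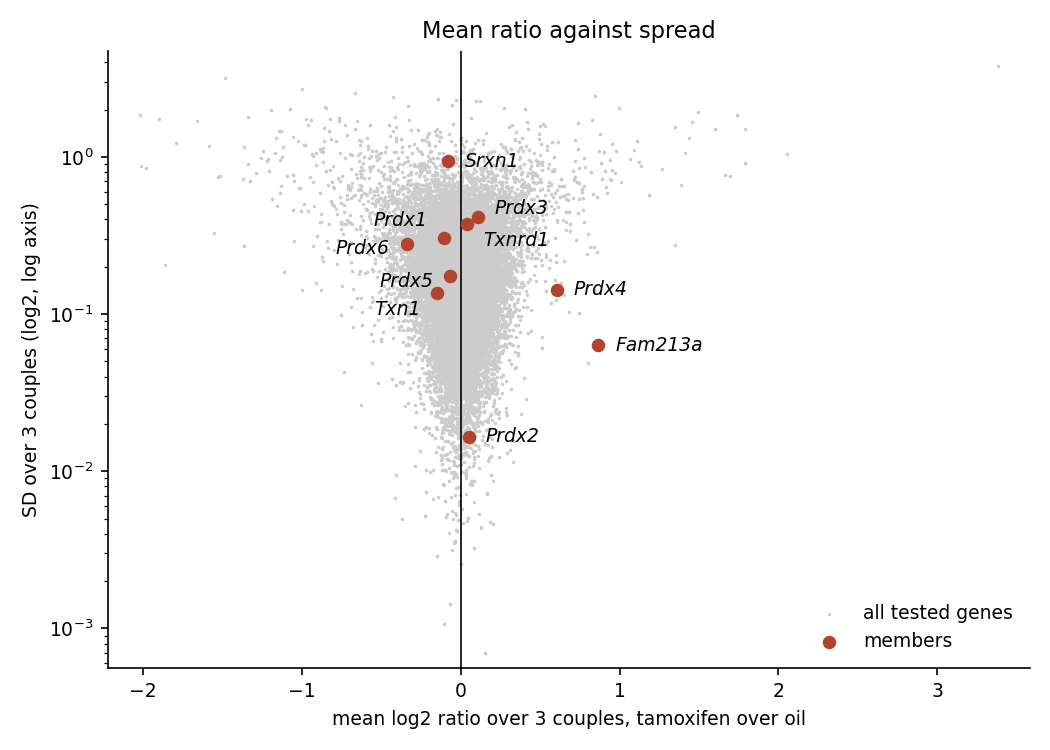
Each grey point is 1 of the tested genes, with its mean log2 ratio of tamoxifen over oil on the horizontal axis and its SD over the 3 couples on a logarithmic vertical axis; members are in red. Fam213a (0.87, SD 0.06) and Prdx4 (0.60, SD 0.14) lie to the right of the bulk, Prdx2 (0.05, SD 0.02) lies in its lower part and Srxn1 (-0.08, SD 0.94) in its upper part.

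Prdx4 encodes the peroxiredoxin of the endoplasmic reticulum, which uses peroxide to drive disulfide formation in secretory proteins. Its log2 signal was 12.95, 12.45 and 12.20 in tamoxifen samples 1, 2 and 3, against 12.30, 11.73 and 11.75 in oil samples 1, 2 and 3. The groups overlapped, because oil sample 1 was brighter than tamoxifen sample 3. Within couples the order was the same each time, with log2 ratios of 0.65, 0.72 and 0.44 (mean 0.60 ± 0.14 SD over n = 3 couples). All 6 arrays were higher with tamoxifen, from 0.40 to 0.64 with tamoxifen in Cy5 and from 0.49 to 0.80 with tamoxifen in Cy3. The unadjusted p of Prdx4 was 0.0016 and its limma adjusted p over all genes was 0.67, so the difference did not pass. Like Fam213a, Prdx4 was brightest in sample 1 of both groups.

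A second Prdx4 probe, at chrX:151771909-151771968 on the minus strand, is assigned in the files to another transcript, ENSMUST00000123915. It was well above background in 6 tamoxifen readings and 3 oil readings. This probe was dim, with a mean log2 signal of 6.45, and the background correction pulls dim ratios toward 0. Its log2 ratios were 0.02, 0.08 and 0.14 in couples 1, 2 and 3, higher with tamoxifen each time but far smaller than those of the bright probe. With the probes of a gene averaged, the ratio of Prdx4 was 0.34 in place of 0.60.

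Prdx1 and Prdx2 encode the main cytosolic peroxiredoxins. The log2 signal of Prdx1 was 15.29, 15.47 and 15.10 in tamoxifen samples 1, 2 and 3, against 15.43, 15.25 and 15.50 in oil samples 1, 2 and 3. Its log2 ratios of -0.13, 0.22 and -0.40 differed in sign, with a mean of -0.10 ± 0.31 (adjusted p = 0.88, limma) that became 0.04 without couple 3. The other 3 Prdx1 probes repeated the order of the couples, with 0.18 to 0.26 in couple 2 and -0.40 to -0.18 in couple 3, and with values of either sign near 0 in couple 1. The dimmest of these was well above background in only 4 of 6 readings per group and did not pass the filter. On the 3 probes that passed, Prdx1 was above 0 in couple 2 and below 0 in couple 3.

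Prdx2 showed the smallest spread of the members. Its log2 signal was 13.82, 13.67 and 13.54 in tamoxifen samples 1, 2 and 3, against 13.75, 13.63 and 13.50 in oil samples 1, 2 and 3. The log2 ratios of 0.07, 0.04 and 0.05 are all above 0 but amount to a 1.04-fold difference (mean 0.05 ± 0.02, adjusted p = 0.88, limma). A second Prdx2 probe gave 0.0048, 0.03 and -0.06, so the sign was not shared between the probes.

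Prdx3 encodes the mitochondrial peroxiredoxin, and Prdx5 a peroxiredoxin found in mitochondria, peroxisomes and the cytosol. For Prdx3 the log2 signal was 11.94, 11.68 and 11.66 in tamoxifen samples 1, 2 and 3, against 11.41, 11.58 and 11.97 in oil samples 1, 2 and 3. Its log2 ratios of 0.53, 0.10 and -0.31 had a mean of 0.11 ± 0.42 (adjusted p = 0.90, limma), which turned to -0.10 without couple 1. The tamoxifen samples lay close together and the oil samples set most of this spread. For Prdx5 the log2 signal was 14.37, 14.60 and 14.54 in tamoxifen samples 1, 2 and 3, against 14.50, 14.47 and 14.74 in oil samples 1, 2 and 3. Its log2 ratios were -0.13, 0.13 and -0.20 (mean -0.07 ± 0.18, adjusted p = 0.89, limma), and without couple 3 the mean was 0.0015. A second Prdx5 probe gave -0.11, 0.18 and -0.20, the same signs.

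Prdx6 encodes the peroxiredoxin that also acts as a phospholipase and takes part in the turnover of surfactant phospholipid in the lung. Its log2 signal was 14.65, 14.91 and 14.96 in tamoxifen samples 1, 2 and 3, against 14.93, 15.01 and 15.60 in oil samples 1, 2 and 3. Oil sample 3 stood well above the other 5 samples, and the groups overlapped. The log2 ratios were -0.29, -0.09 and -0.64 (mean -0.34 ± 0.28, unadjusted p = 0.049, adjusted p = 0.69, limma). Without couple 3 the mean was -0.19.

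All 4 Prdx6 probes were lower with tamoxifen in all 3 couples. The probe whose sequence is shown above gave -0.18, -0.02 and -0.56 in couples 1, 2 and 3, close to the bright probe. A dim probe at chr1:163179092-163179151, assigned to the transcript ENSMUST00000194613, gave -0.50, -0.48 and -0.81, and a dim probe at chr1:163179695-163179754, assigned to ENSMUST00000130867, gave -0.31, -0.11 and -0.34. Couple 3 had the lowest ratio on each of the 4 probes. By dye orientation the bright probe was less uniform, with -0.04, 0.06 and -0.51 when tamoxifen was in Cy5, against -0.53, -0.25 and -0.77 when it was in Cy3.

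**Figure D3:**
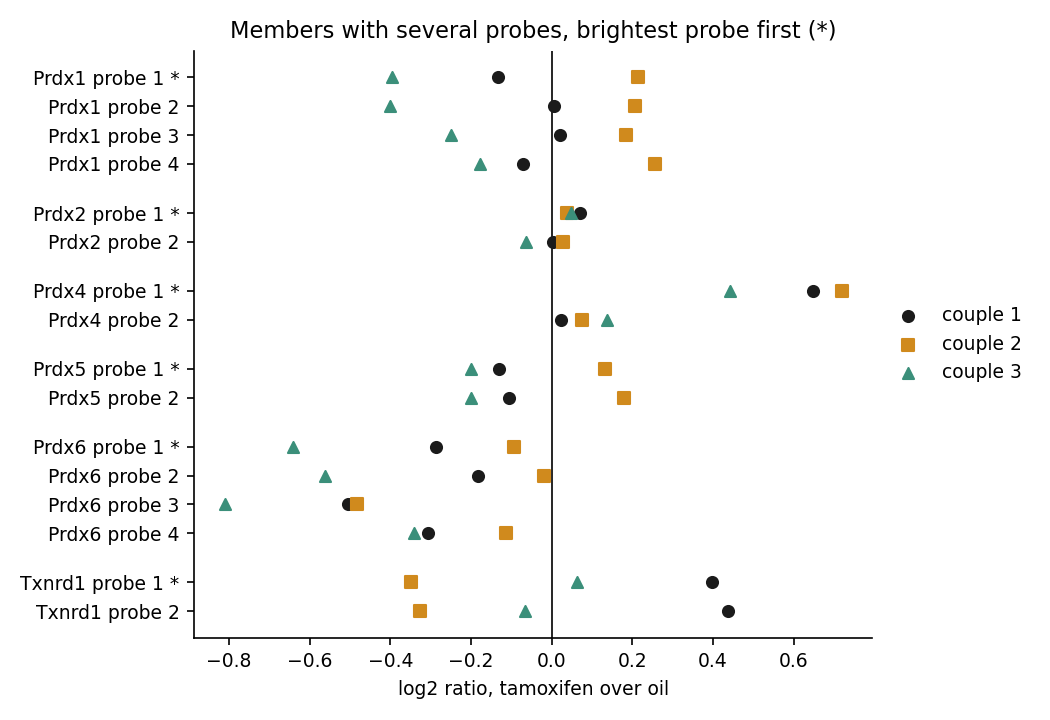
The log2 ratio of tamoxifen over oil is plotted for every probe of the 6 members that have more than 1 probe, by couple (circle, square and triangle for couples 1, 2 and 3); a star marks the brightest probe of a gene, used for the other results. The 4 Prdx6 probes lie below 0 in all couples, and the 4 Prdx1 probes, of which the fourth is too dim for the filter, have couple 2 above 0 and couple 3 below 0.

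Txn1, Txnrd1 and Srxn1 take part in reducing or repairing some of the peroxiredoxins. Txn1, the cytosolic thioredoxin, had a log2 signal of 13.77, 13.80 and 13.78 in tamoxifen samples 1, 2 and 3, against 13.995, 13.79 and 14.01 in oil samples 1, 2 and 3. Its log2 ratios were -0.22, 0.01 and -0.23 (mean -0.15 ± 0.14, adjusted p = 0.74, limma). The tamoxifen samples differed by 0.02 (SD) and the oil samples by 0.12, and only oil sample 2 was near the tamoxifen samples. Txnrd1, the cytosolic thioredoxin reductase, had a log2 signal of 12.95, 12.55 and 12.85 in tamoxifen samples 1, 2 and 3, against 12.55, 12.89 and 12.79 in oil samples 1, 2 and 3. Its log2 ratios of 0.40, -0.35 and 0.06 averaged 0.04 ± 0.37 (adjusted p = 0.97, limma) and -0.14 without couple 1. A second Txnrd1 probe gave 0.44, -0.33 and -0.07, with the same high couple and the same low couple.

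Srxn1, which encodes sulfiredoxin, had the largest spread of ratios among the members. Its log2 signal was 12.05, 11.40 and 12.00 in tamoxifen samples 1, 2 and 3, against 11.05, 12.03 and 12.60 in oil samples 1, 2 and 3. Oil sample 1 was the lowest and oil sample 3 the highest of all 6 samples. The log2 ratios were 1.004, -0.63 and -0.60, with a mean of -0.08 ± 0.94 (adjusted p = 0.97, limma). Both dye orientations repeated this, with 1.16, -0.44 and -0.45 when tamoxifen was in Cy5 and 0.84, -0.82 and -0.76 when it was in Cy3. The sign of the mean depended on 1 couple: leaving out couple 1 gave -0.62, leaving out couple 2 gave 0.20 and leaving out couple 3 gave 0.19.

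**Figure D4:**
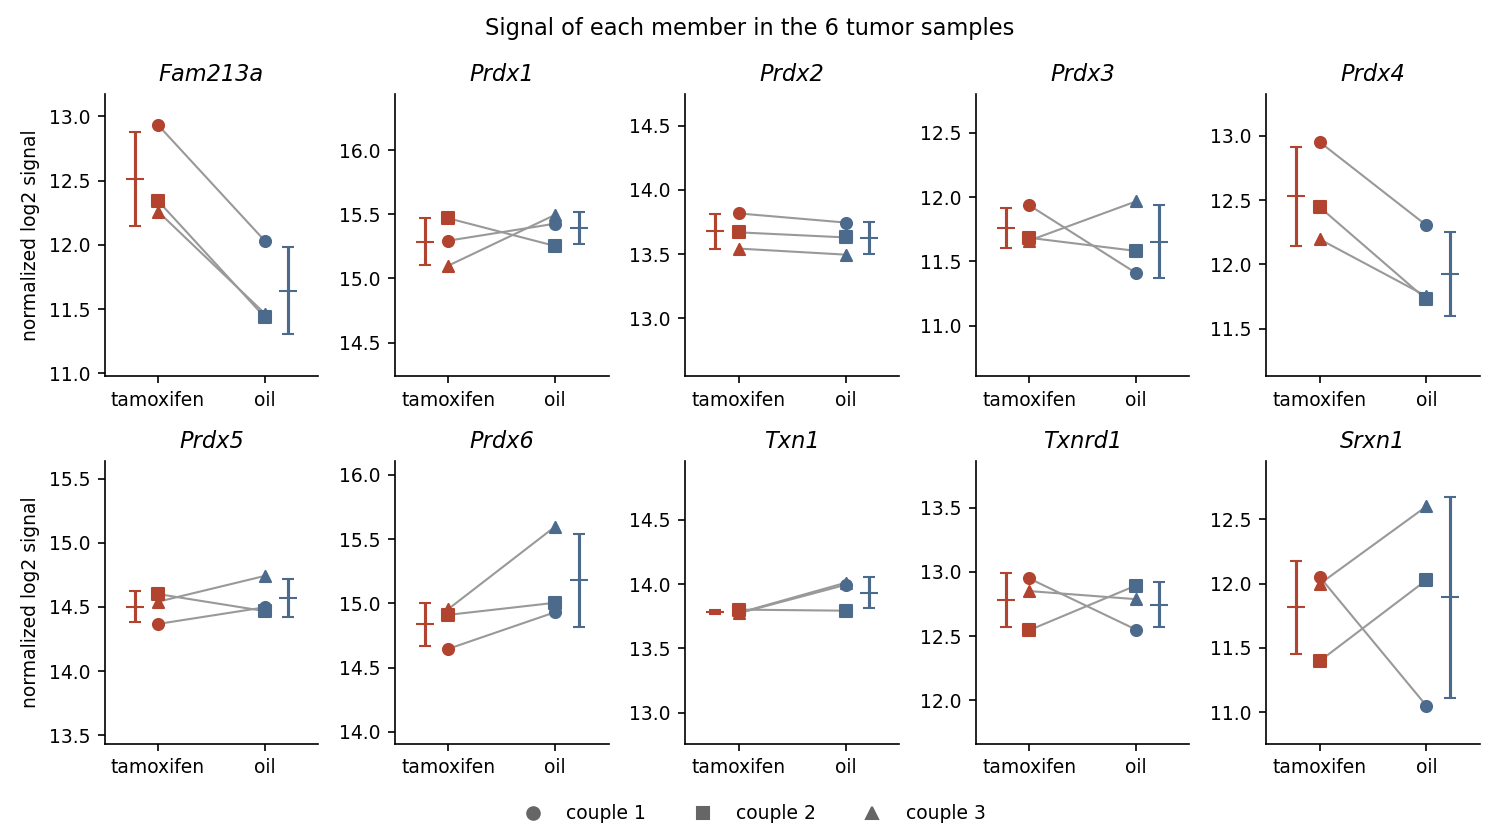
The normalized log2 signal of each member is plotted per sample, tamoxifen left and oil right, with a line joining the samples of a couple and bars for the mean ± SD of each group (n = 3). The vertical axes have equal length but different positions, so slopes can be compared between genes and levels cannot; Fam213a falls along every line from tamoxifen to oil, and the lines of Srxn1 cross.

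The antioxidant response element, to which NRF2 binds, was searched for in the RefSeq promoter windows (GRCm38.p6, from 250 bases before to 50 after each gene start) as TGACNNNGC on both strands. Windows were there for 9 of the 10 members, all but Prdx6. A match was found for 4, Fam213a, Prdx1, Txnrd1 and Srxn1, against 14% of the 27025 genes with a window and 12.4% of the 32851 windows. For Fam213a, 2 overlapping windows of the 5 hold it, and for Txnrd1 1 of 3. Which gene start was in use in these tumors was not measured, so the windows with a match may not be the active ones. The looser letters TGANNNNGC, which include the first motif, match 5 members, against 45% of genes and 41.3% of windows. A match describes the letters only. The stretches below show these matches upstream of the gene start, since the members with one include the evenly higher Fam213a, Srxn1 and Txnrd1 with their couple-dependent ratios, and Prdx1. Capitals mark TGACNNNGC or TGANNNNGC on either strand. In Srxn1 the TGACNNNGC match starts 29 bases into the gene and is not shown, and the 3 upstream matches are to the looser letters. The stretches are chr14:41008273-41008301 (minus strand) for Fam213a, chr4:116685421-116685519 (plus) for Prdx1, chr10:82859104-82859132 (plus) for Txnrd1 and chr2:152105321-152105523 (plus) for Srxn1.
Fam213a: ccctccctatGCCTGGTCAccctgcctac
Prdx1: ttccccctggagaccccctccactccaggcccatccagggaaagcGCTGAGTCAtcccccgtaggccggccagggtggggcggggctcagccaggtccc
Txnrd1: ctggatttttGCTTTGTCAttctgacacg
Srxn1: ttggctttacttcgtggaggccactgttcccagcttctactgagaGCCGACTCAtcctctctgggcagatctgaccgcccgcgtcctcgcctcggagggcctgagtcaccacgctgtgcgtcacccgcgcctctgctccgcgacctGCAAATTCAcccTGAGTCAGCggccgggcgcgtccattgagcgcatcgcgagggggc

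The wider redox genes were read in lists chosen by function. Of 15 other thioredoxin and peroxiredoxin-like genes, 2 were higher in all 3 couples (13.8% of all tested genes) and 1 was lower (16.4% of all tested genes), and the median of their mean log2 ratios was 0.0019, beside -0.0039 over all tested genes. The other peroxiredoxin-like genes did not follow Fam213a evenly: Fam213b was at 0.49, 0.55 and -0.44 in couples 1, 2 and 3, and Aaed1 at 0.24, 0.14 and -0.0030. The genes of one sign were Sesn3 and Sesn2, which encode stress-induced sestrins, at 0.21 ± 0.11 and 0.06 ± 0.05, and Txn2, the mitochondrial thioredoxin, at -0.07 ± 0.04. None of the 15 passed the limma test, and their lowest adjusted p was 0.69.

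Of 15 genes of the glutathione system, the other large peroxide-reducing system of the cell, 0 were higher in all 3 couples (13.8% of all tested genes) and 4 were lower (16.4% of all tested genes), with a median of -0.18. These were Gpx4, the glutathione peroxidase that reduces lipid peroxides, at -0.38 ± 0.20, the glutaredoxin gene Glrx2 at -0.29 ± 0.24, glutathione reductase Gsr at -0.21 ± 0.16 and Gclc, the catalytic subunit of the first enzyme of glutathione synthesis, at -0.17 ± 0.11. Gclm, its modifier subunit, was at 0.80, 0.01 and -0.78 in couples 1, 2 and 3. Their lowest adjusted p was 0.69.

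Of 14 NRF2 targets, 4 of which are also in the glutathione list, 1 was higher in all 3 couples (13.8% of all tested genes) and 4 were lower (16.4% of all tested genes), with a median of -0.22. The list medians were -0.14, -0.01 and -0.48 in couples 1, 2 and 3, so couple 3 was the lowest. The gene that was higher was G6pdx, which makes NADPH in the pentose phosphate pathway, at 0.33, 0.06 and 0.0097. Nqo1, a quinone reductase, was at -0.45 ± 0.24 and Ftl1, a ferritin subunit, at -0.35 ± 0.22, each lower in all couples (adjusted p = 0.69 for each, limma). The other lower genes were Gclc and Gsr, already counted in the glutathione list. The target list holds none of the members described above. Of the 4 NRF2 regulators, Nfe2l2, which encodes NRF2, was at 0.44, -0.57 and -0.09 in couples 1, 2 and 3, and Bach1, a repressor at the same DNA element, at -0.38, -0.35 and -0.01. No gene of either list passed the test.

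Of the 5 superoxide dismutase and catalase genes, 1 was higher in all 3 couples (13.8% of all tested genes) and 0 were lower (16.4% of all tested genes). The gene that was higher was Sod3, the extracellular superoxide dismutase, at 0.11 ± 0.09, and the list median was 0.07. Catalase (Cat) was at 0.83, -0.47 and -0.16 in couples 1, 2 and 3. Of 8 genes of oxidative folding in the endoplasmic reticulum, where Prdx4 acts, 1 was higher in all 3 couples (13.8% of all tested genes) and 1 was lower (16.4% of all tested genes). Pdia3, a disulfide isomerase, was the higher gene, at 0.14 ± 0.20. Ero1l, the oxidase that feeds the isomerases, was the lower gene, at -0.33 ± 0.35. The median of the 8 genes was -0.03, and the other 6 changed sign between couples. None of these lists held a gene past the test.

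**Figure D5:**
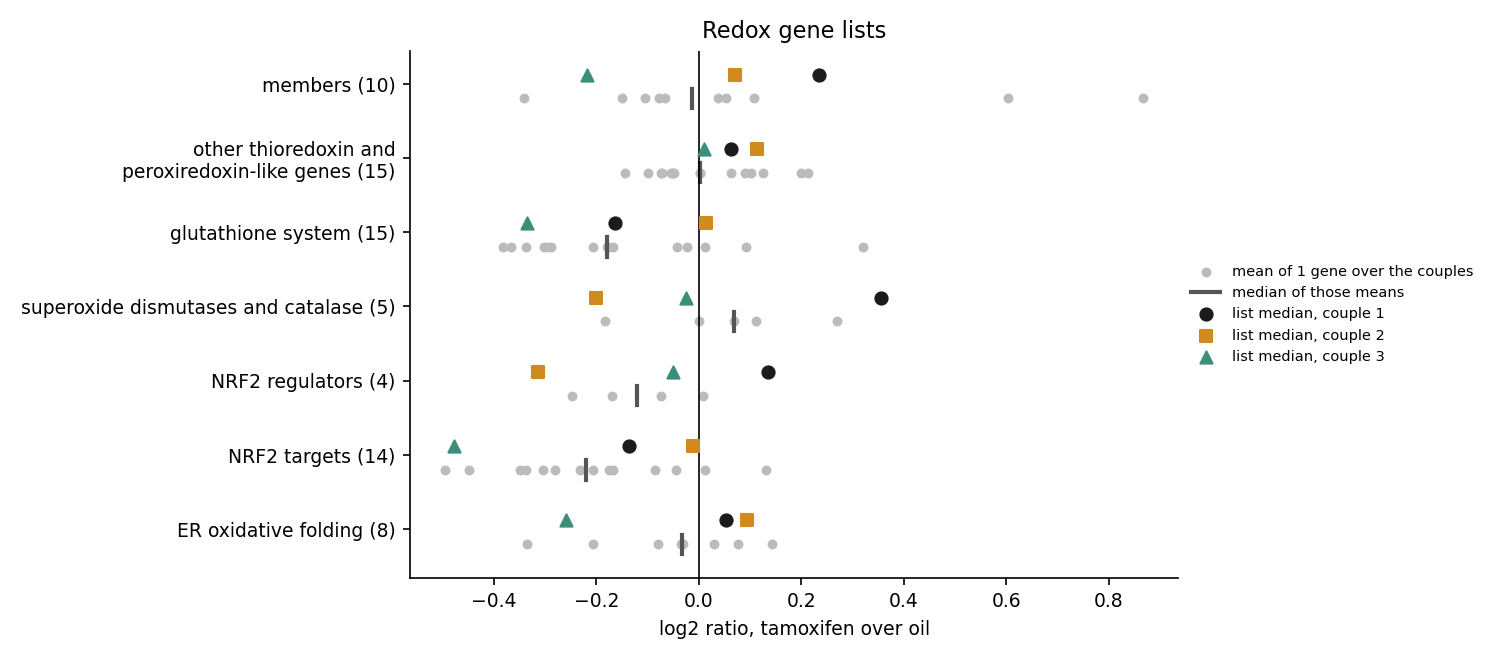
For each redox list (number of tested genes in brackets), grey points are the mean log2 ratio of tamoxifen over oil of each gene, the dark bar is their median, and the circle, square and triangle are the list medians in couples 1, 2 and 3. The median over the 10 members was 0.23, 0.07 and -0.22 in couples 1, 2 and 3, and Fam213a and Prdx4 are the right-hand grey points of the top row.

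Genes with ratios most like those of Fam213a over the 6 arrays were picked by the root mean square of the difference, and are listed with no test. They were Itpripl1 (difference 0.18, ratio 0.85 ± 0.14), Gm13056 (0.20, ratio 0.80 ± 0.05), Ccng1 (0.23, ratio 0.65 ± 0.13), Arxes1 (0.24, ratio 0.75 ± 0.10) and 9030617O03Rik (0.25, ratio 0.86 ± 0.25). Ccng1 encodes cyclin G1, a known p53 target, and none of the 5 was on the redox lists. Within 500 kb of the Fam213a probe on chromosome 14, 9 other tested genes had probes, with log2 ratios between -0.38 and 0.32. Those nearest by position on each side were Tspan14, a tetraspanin, 87.03 kb away at 0.15 ± 0.10, and Mat1a, a methionine adenosyltransferase, 130.1 kb away at 0.32 ± 0.29. The same stretch holds the surfactant protein genes Sftpa1, at -0.30 ± 0.09, and Sftpd, at -0.38 ± 0.22. Both were lower in all 3 couples, as were 16.4% of all tested genes. Tspan14, Mat1a and the nearby AK158953 were higher in all 3 couples, as were 13.8% of all tested genes, and the other neighbours changed sign. No neighbour passed the test (adjusted p of 0.69 for both surfactant genes, limma), and none reached the ratio of Fam213a.

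In bulk tumor RNA, fewer cells of a type and less RNA per cell cannot be told apart. The tissue carried its defining markers: all 10 alveolar type 2 markers, Sftpc and Nkx2-1 among them, were well above background in every reading, and none was absent. The log2 of their summed signal was 19.19 to 19.20 in tamoxifen samples and 19.44 to 19.51 in oil samples, without overlap. Of single tested genes, 7.14% had all tamoxifen samples below all oil samples. Of the 10 markers, 5 were lower in all 3 couples, against 16.4% of all tested genes. The summed signal of these markers differed between the groups without overlap, as the signal of Fam213a did. Prdx4 and Prdx6 differed in one direction within couples but overlapped between the groups. The part of the type 2 markers in the ratios of these members was not tested. Alveolar macrophage markers (7 of 8 on the array, all 7 tested) lay on this scale at 15.81 to 17.89 in tamoxifen samples and 16.60 to 17.48 in oil samples, and proliferation markers (6 of 6 tested) at 13.03 to 13.63 in tamoxifen samples and 12.20 to 13.77 in oil samples. Both of these lists overlapped between the groups and differed widely between samples. By this summed signal, 2 further marker lists were lower with tamoxifen within each couple and 1 was higher, all with overlap between the groups. Fibroblast markers (6 of 6 tested) were at 14.08, 14.52 and 13.76 in tamoxifen samples 1, 2 and 3, against 14.21, 14.63 and 14.01 in oil samples 1, 2 and 3. Gene by gene, 3 of the 6 were lower in all 3 couples (16.4% of all tested genes), while Dcn was at 1.71 in couple 2. Club cell markers (5 of 5 tested) were at 15.44, 16.46 and 16.37 in tamoxifen samples, against 15.68, 17.46 and 16.84 in oil samples. The single club cell genes did not share this order. None was lower in all 3 couples (0 of 5, against 16.4% of all tested genes), and their median log2 ratio in couple 3 was 1.06, higher with tamoxifen. T and NK cell markers (5 of 6 tested) were at 11.06, 10.99 and 10.70 in tamoxifen samples, against 10.89, 10.90 and 10.58 in oil samples. Of these 5, 2 were higher in all 3 couples (13.8% of all tested genes). The part of these lists in the members' ratios was not tested. Of the 2 Ror1 probes, both on chromosome 4, one was too dim to pass the background flag in any reading. The other was at 0.58, 0.44 and 0.18 in couples 1, 2 and 3, higher with tamoxifen. The labels do not give the floxed part of the gene, so it does not check the deletion.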

How the data were processed

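RNA from 3 tamoxifen and 3 oil tumor samples was read on 6 arrays, all on 1 slide in 1 scan, so no batch was tested. The members and gene lists were chosen with earlier results of these data known. The deposited files give spot intensity (mean foreground, median background), the scanner software's log10 ratio of Cy5 over Cy3 and 0 or 1 flags, per the file headers. Per the submitters' processing notes, it was Agilent Feature Extraction 12.0.3.1. The deposited value table holds log2 ratios of Cy5 over Cy3: set against the log10 ratios, its slope was 3.32 to 3.33. The column medians of couples 1, 2 and 3 were 0.14, -0.14 and -0.06 where tamoxifen was in Cy5, and 0.13, -0.15 and -0.0054 on their dye-swapped partners. No centring was added to the software's dye normalization, and no scale or direction stayed unknown. Probe positions are on mm9, per the file headers; without an annotation of that build, exon and UTR are not given.

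Intensities were background-corrected by normexp (limma 3.58.1 under R 4.3.3; offset 50), which pulls dim ratios toward 0, and normalized by loess within arrays. The 3671 control spots had weight 0 and were dropped, as were 89 to 132 outlier spots per array; 0 spots were saturated. Per array and channel, 51.8% to 58.8% of probes exceeded background clearly by the scanner's flag. The brightest of a gene's probes stood for it, tested if that flag was set on both arrays in at least 2 couples, in the channel of either group. Arrays were turned to tamoxifen over oil and the dye-swapped arrays of a couple averaged, giving 3 replicates. Ratios were tested against 0, two-sided (lmFit, eBayes, Benjamini-Hochberg over all 20474 genes). Precision is limited by the number of couples (median SE from eBayes 0.098 on the log2 scale). Signals per sample are channel values after Aquantile normalization, averaged over 2 arrays, and are not compared between probes. The fit was also run on simulated couple ratios with known changes, drawn independently, as a check of the code, and nothing about these data is read from it.

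Text names all members, up to 4 genes per list of one sign in all couples with the smallest SD relative to the mean, the 5 most like Fam213a, its neighbours within 500 kb and Ror1; Fam213b, Aaed1, Gclm, G6pdx, Nfe2l2 and Cat were added after their values were seen. Alternatives covered the background offset, normalization, deposited values, filter, probe rule, outlier spots, unit of the fit, dye orientation and each couple left out.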

Additional observations from a re-analysis of the deposited data

How the results depend on the processing

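The ratio of Fam213a ran from 0.74 (tamoxifen in Cy5 only) to 0.99 (tamoxifen in Cy3 only) over the alternatives, and from 0.85 to 0.90 with a couple left out. Fam213a was chosen for being evenly higher in every couple, so leaving out a couple could not turn its sign. Its range is a description from which nothing is read. Prdx4 was above 0 and Prdx6 below 0 under every alternative run, from 0.34 to 0.69 and from -0.52 to -0.16. Each kept the same sign in all 3 couples, so leaving out a couple could not turn it. Of the tested genes, 56 passed an adjusted p of 0.05 in limma with the couple as a replicate block (correlation 0.64), 1 with the channels taken apart and no replicate block, and 0 under each other setting, each couple left out included; 0 of these calls were among the 9 members other than Fam213a. The couples are the arrays' own pairing. The number of members lower in all couples was 2 with the scanner software's log ratio, with the deposited values and with tamoxifen in Cy3 only, 0 with median centring and with tamoxifen in Cy5 only, and 1 to 4 with a couple left out; the number higher was 2 with the probes of a gene averaged and with tamoxifen in Cy5 only, and 3 to 4 with a couple left out. The means of 5 members changed sign under some settings. Prdx1 was at 0.0041 with median centring, 0.0093 with tamoxifen in Cy5 only and -0.26 to 0.042 with a couple left out. Prdx3 was at -0.022 with tamoxifen in Cy5 only and -0.10 to 0.31 with a couple left out. Prdx5 was at 0.027 with median centring, 0.017 with tamoxifen in Cy5 only and -0.17 to 0.0015 with a couple left out. Txnrd1 was at -0.014 with tamoxifen in Cy3 only and -0.14 to 0.23 with a couple left out, and Srxn1 at 0.091 with tamoxifen in Cy5 only and -0.62 to 0.20 with a couple left out. For these sign changes the cause was not tested. With a couple left out, list medians stayed below 0 for the glutathione system (-0.27 to -0.10), NRF2 targets (-0.28 to -0.12) and NRF2 regulators (-0.25 to -0.01). List medians changed sign for the members (-0.10 to 0.09), other thioredoxin-like genes (-0.02 to 0.01), superoxide dismutases and catalase (-0.07 to 0.15) and oxidative folding (-0.11 to 0.14). The looser promoter letters raised the share of matching windows to 41.3%. The planned comparison of protein sequences was not run.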
